A study of Mus musculus with 2 samples.

Results

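The genes described here are 10 factors of naive and core pluripotency, taken by symbol from a deposited read count table of mouse embryonic stem cells: Nanog, Tfcp2l1, Tbx3, Prdm14, Zfp42, Dppa2, Dppa3, Dppa4, Sall4 and Utf1. All 10 were found, each on a row of its own, among the 24061 genes of the table. Poly(A) RNA was sequenced from 2 cultures, 1 labelled mES-Pc4-OE (overexpression of Pc4, the transcriptional coactivator encoded by Sub1; passages 24 to 37) and 1 labelled mES-control (passages 17 to 23). Both are C57BL/6 cells kept with leukaemia inhibitory factor (LIF) and knockout serum replacement on mouse embryonic fibroblast feeders, and whether feeders were removed before extraction is not stated. The overexpressing cells carry a lentivirus that also expresses the fluorescent protein Venus, and 3 lines were made from picked colonies, of which the labels do not name the one sequenced. With 1 library per group there is no spread between cultures, passage and group cannot be told apart, and no p-value is given. Intervals are 95% intervals of counting error alone.

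Naive pluripotency is the state of the pre-implantation epiblast. It is held by a network of transcription factors around OCT4 (Pou5f1), SOX2 and NANOG. In it LIF signalling maintains TFCP2L1 and TBX3, and PRDM14 keeps the FGF pathway and the de novo DNA methyltransferases low. DPPA2 and DPPA4 form a chromatin-bound pair, DPPA3 guards DNA methylation marks in the egg and early embryo, and SALL4 and UTF1 act at chromatin in cells that also hold OCT4.

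The libraries held 10194783 counts (Pc4-OE) and 10571463 counts (control). Sub1, the gene named as overexpressed, had 2432 counts (235.0 CPM, counts scaled to a common library size by TMM, the trimmed mean of M values) in the library labelled Pc4-OE and 5522 counts (530.3 CPM) in the library labelled control, a ratio of 0.443 (interval 0.422 to 0.465). Since this is opposite to the label, the groups are named by label only. Whether the 2 labels were exchanged was not tested, and an exchange would turn each direction given here; whether reads of the lentiviral transcript count towards Sub1 is not stated. The 10 marker genes of embryonic stem cells were all present, between 60.4 and 1057.5 CPM in Pc4-OE and between 71.9 and 1092.2 CPM in control. They include Nanog and Zfp42, which are also among the factors described here, and Zfp42 was the lowest marker in both libraries. The 24 fibroblast markers summed to 20366 CPM in Pc4-OE and 8124 CPM in control, and the 16 macrophage markers with a row to 796.1 CPM in Pc4-OE and 245.8 CPM in control, with no marker of either list at 0 in either library. Whether these transcripts came from separate fibroblasts and macrophages was not tested, nor was the part of such cells in the results below. If RNA of several cell types is mixed, fewer cells of a type and less RNA per cell cannot be told apart.

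The 10 genes covered a wide range of levels. Summed, they took 17404 counts in Pc4-OE, or 0.171% of that library (exact binomial interval 0.168 to 0.173), against 19594 counts in control, or 0.185% (0.183 to 0.188). Per kilobase of exon, Nanog and Utf1 had the highest levels of the 10 in both libraries, with Nanog at 225.7 and Utf1 at 169.1 CPM per kb in Pc4-OE, against 190.7 for Nanog and 237.2 for Utf1 in control, so the order of these 2 genes differed between the libraries. Dppa4 came next in both, at 62.8 CPM per kb in Pc4-OE and 110.2 in control. At the low end, Prdm14 had 9.42 CPM per kb and Dppa3 12.1 in Pc4-OE, against 8.05 for Prdm14 and 5.99 for Dppa3 in control. The exon lengths are from GENCODE M21, which need not be the annotation the authors counted on.

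**Figure D1:**
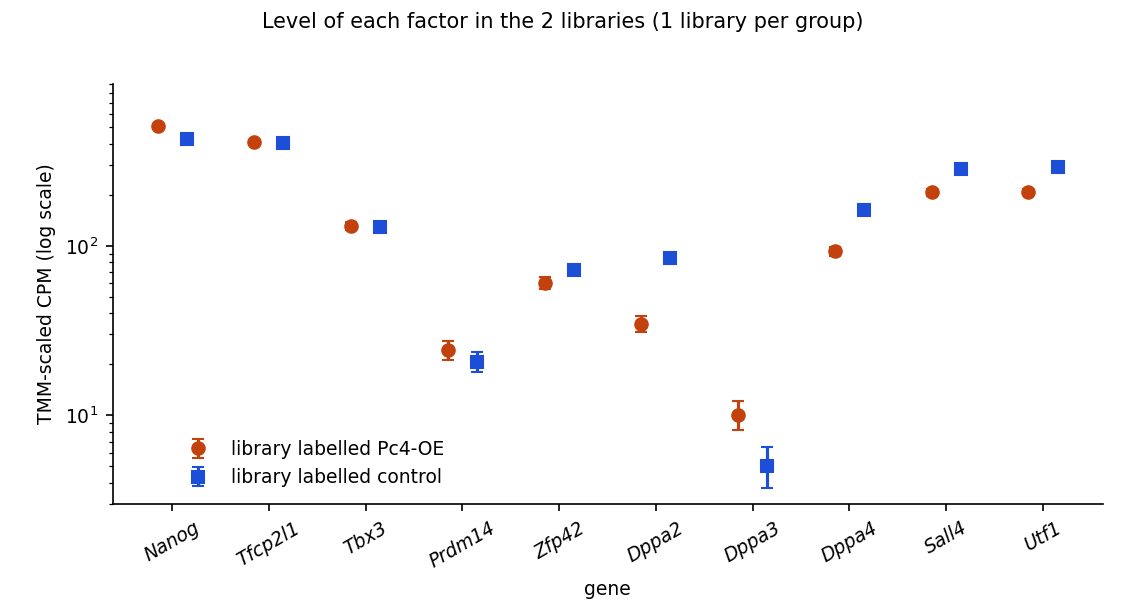
Level of each of the 10 factors as TMM-scaled CPM on a log axis, with circles for the library labelled Pc4-OE and squares for the library labelled control; bars are exact 95% Poisson intervals of the count. Dppa2, at 34.6 CPM in Pc4-OE and 85.1 CPM in control, has the widest gap, while the points of Tfcp2l1 and Tbx3 lie side by side.

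The 10 factors did not move together. Of the 10, Dppa3 was at least 2-fold higher in Pc4-OE, as were 11.8% of the 14213 genes measured (at least 20 counts summed over both libraries), and Dppa2 was at least 2-fold lower, as were 4.02% of all. When the share of all genes was taken after scaling both libraries to the other pluripotency genes (a list described below), 3721 genes were 2-fold higher and 135 lower, against 1673 higher and 572 lower with TMM. By the weaker rule that the counting interval excludes a ratio of 1, 2 of the 10 lay above it (31.2% of all genes did) and 5 below it (33.1% of all), while 3 intervals included 1. When scaled to the other pluripotency genes, 8 of the 10 lay above 1 and 2 below, and 0 were 2-fold lower. That scaling raises the log2 ratio of every gene by 0.57. The share of all genes above or below 1 was not computed under it. The median log2 ratio of the 10 was -0.12, against -0.01 for all genes, and became 0.45 when scaled to the other pluripotency genes. Read against the background shares with TMM, the counts with TMM say nothing particular about the 10 as a set. The 8 above 1 and 2 below under the other scaling have no such share beside them.

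**Figure D2:**
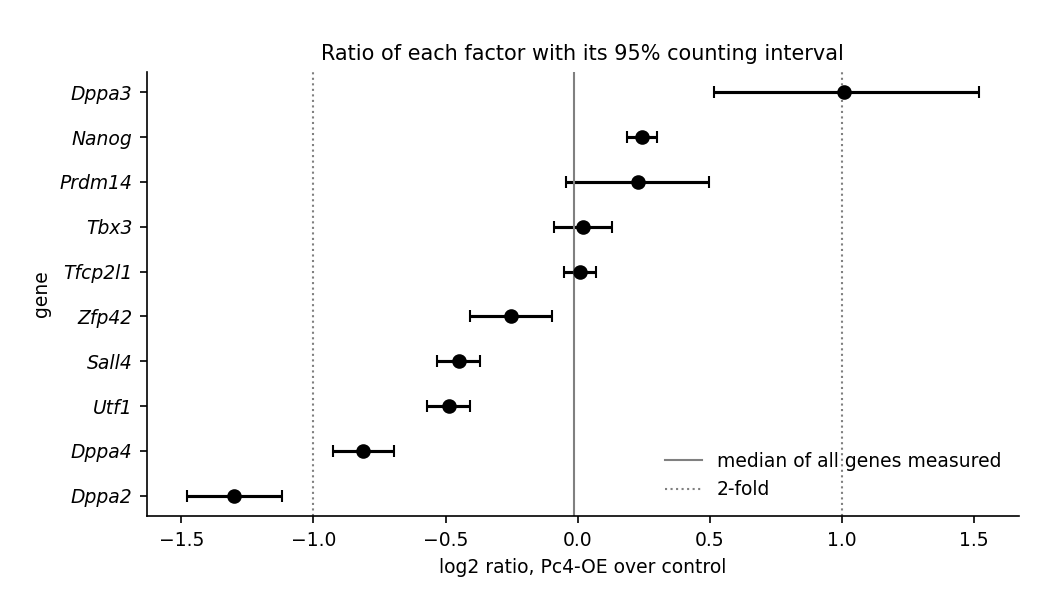
Log2 ratio of Pc4-OE over control for each of the 10 factors with its 95% counting interval; the solid line is the median of all genes measured (-0.01) and the dotted lines mark 2-fold. The genes run from Dppa2 at -1.30 to Dppa3 at 1.01, with Tfcp2l1 and Tbx3 beside the solid line.

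Nanog, a homeobox factor whose level marks the naive state, was slightly higher in the library labelled Pc4-OE. It had 5238 counts (506.1 CPM) in Pc4-OE and 4452 counts (427.5 CPM) in control, a ratio of 1.18 (interval 1.14 to 1.23; log2 ratio 0.24). That stood at the 65.6th percentile of all genes measured. It lies on chromosome 6 (122707489 to 122714633, GRCm38). Nanog held 30.1% of the counts of the 10 genes in Pc4-OE (29.4 to 30.8), against 22.7% in control (22.1 to 23.3). RefSeq annotates 2 pseudogenes named after it, Nanog-ps1 and Nanog-ps2, with no row in the table, and reads that match several copies may have been lost or shared.

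Nanog is a textbook target of OCT4 and SOX2, and its proximal promoter carries the composite site of both. The 300 bases around an annotated start (250 before it, 50 from it on; chr6:122707239-122707538, plus strand, RefSeq GRCm38.p6) are shown because Nanog did not share the lower level of Pou5f1 in these libraries. Capitals mark a match to the SOX letters CATTGT, any 1 base, then the OCT letters ATGCAAA, read here on the opposite strand, 75 to 62 bases before the start.
Nanog: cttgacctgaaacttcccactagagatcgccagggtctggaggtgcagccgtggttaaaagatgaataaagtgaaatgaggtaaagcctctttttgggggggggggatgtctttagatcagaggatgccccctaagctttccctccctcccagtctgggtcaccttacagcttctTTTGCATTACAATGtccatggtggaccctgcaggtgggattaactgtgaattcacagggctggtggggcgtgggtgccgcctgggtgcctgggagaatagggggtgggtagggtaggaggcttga
Of 32851 promoter windows of this length, 2 held a match on either strand (0.00609%), and both belong to Nanog, which has 2 annotated starts with overlapping windows. The letters allow 1 free base and no other mismatch, and were picked after the match was seen. That share therefore does not measure how rare composite sites of OCT4 and SOX2 are. Pou5f1, which encodes OCT4, had 571.4 CPM in Pc4-OE and 1092.2 CPM in control (log2 ratio -0.93, interval -0.98 to -0.89), and Sox2 had 456.1 CPM in Pc4-OE and 461.0 CPM in control (-0.02, interval -0.07 to 0.04). Set directly against Pou5f1 counts, Nanog stood at 0.886 per Pou5f1 count in Pc4-OE and 0.391 in control, a 2.26-fold higher balance (2.15 to 2.38) that no scaling of the libraries can alter.

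Among the naive factors, Tfcp2l1, Tbx3 and Prdm14 had intervals that included a ratio of 1. Tfcp2l1, a grainyhead-family factor downstream of LIF and Wnt signals, had 4231 counts (408.8 CPM) in Pc4-OE and 4232 counts (406.4 CPM) in control, with a ratio of 1.01 (0.964 to 1.05). It was the second most counted of the 10 in both libraries and lies on chromosome 1 (118627923 to 118685168). Tbx3, a T-box factor that can sustain self-renewal when LIF is low, had 1353 counts (130.7 CPM) in Pc4-OE and 1341 counts (128.8 CPM) in control, with a ratio of 1.02 (0.941 to 1.10). It lies on chromosome 5 (119670534 to 119684724), where the median log2 ratio of the 753 other genes at 5 CPM or more was -0.33, so Tbx3 stood 0.35 above its chromosome. A long noncoding RNA gene, Tbx3os1, overlaps Tbx3 and has no row in the table. Prdm14 (chromosome 1, 13113428 to 13127163), a PR-domain repressor, had 250 counts (24.2 CPM) in Pc4-OE and 215 counts (20.6 CPM) in control, a ratio of 1.17 whose interval of 0.971 to 1.41 is the widest of these 3. With library totals in place of TMM, the log2 interval of Prdm14 was 0.0011 to 0.54.

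Zfp42, also called Rex1, a zinc finger gene used as a reporter of the naive state, lies on chromosome 8 (43295067 to 43307009). It had 625 counts (60.4 CPM) in Pc4-OE and 749 counts (71.9 CPM) in control, a ratio of 0.840 (0.754 to 0.935; log2 ratio -0.25), and the direction turns to 0.32 when scaled to the other pluripotency genes. Zfp42 has an annotated pseudogene, Zfp42-ps1, with no row in the table. Its promoter window (chr8:43306960-43307259, minus strand) is printed beside that of Nanog because it is the only one of the 4 factors with a RefSeq window here (Nanog, Tfcp2l1, Utf1 and Zfp42) that holds the plain octamer ATGCAAAT, the letters that POU factors such as OCT4 read; capitals mark it, on the opposite strand, 186 to 179 bases before the start. The second line gives Tfcp2l1 (chr1:118627695-118627994, plus strand), with a TATAAA in capitals 28 to 23 bases before the start used for that window. The gene span given above begins at 118627923, upstream of that start and nearer to the TATAAA.
Zfp42: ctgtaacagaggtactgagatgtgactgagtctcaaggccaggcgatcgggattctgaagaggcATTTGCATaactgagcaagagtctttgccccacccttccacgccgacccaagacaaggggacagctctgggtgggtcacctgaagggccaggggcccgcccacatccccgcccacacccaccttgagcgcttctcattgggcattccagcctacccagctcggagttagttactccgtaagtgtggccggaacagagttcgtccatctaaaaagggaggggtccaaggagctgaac
Tfcp2l1: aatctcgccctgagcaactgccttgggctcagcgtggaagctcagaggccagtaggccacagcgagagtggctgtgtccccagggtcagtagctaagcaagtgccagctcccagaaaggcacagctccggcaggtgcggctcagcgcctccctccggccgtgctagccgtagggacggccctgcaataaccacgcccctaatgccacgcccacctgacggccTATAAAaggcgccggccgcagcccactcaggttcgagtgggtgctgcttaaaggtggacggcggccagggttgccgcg
The octamer was in 570 of the 32851 windows (1.74%) and TATAAA in 4473 (13.6%), on either strand. The half-sites alone were searched too: CATTGT was in 12.6% of all windows and, of the 4 factors, in Nanog, and ATGCAAA, which lies within both the composite and the octamer, was in 4.63% and in Nanog and Zfp42. All 5 motifs were searched on both strands, and the 3 in capitals were picked after these matches were seen. The Utf1 window held none of the 5. The windows also differ in CpG dinucleotides, with 4 in the printed window of Nanog, 11 in Zfp42, 17 in Utf1 and 21 in Tfcp2l1, against a median of 7 over all windows. A match in these letters describes the sequence and does not show binding.

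Dppa2 and Dppa4 were lower in the library labelled Pc4-OE, and Dppa2 was the lowest of the 10 by ratio. Both encode small SAP-domain proteins that bind DNA as a pair and prime silent and early zygotic genes. Dppa2 had 358 counts (34.6 CPM) in Pc4-OE and 886 counts (85.1 CPM) in control, which is 2.46-fold lower (2.17 to 2.79) and at the 2.01st percentile of all genes. Dppa4 had 961 counts (92.9 CPM) in Pc4-OE and 1697 counts (163.0 CPM) in control, 1.76-fold lower (1.62 to 1.90), short of the 2-fold rule and at the 7.37th percentile. Both kept a ratio below 1 when scaled to the other pluripotency genes, with log2 ratios of -0.73 for Dppa2 and -0.24 for Dppa4. The balance within the pair differed too, with 2.68 Dppa4 counts per Dppa2 count in Pc4-OE and 1.92 in control, a 1.40-fold shift (1.21 to 1.63).

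Dppa3, also called Stella or PGC7, a maternal-effect gene that marks a fraction of naive cells and the germ line, was the highest of the 10 by ratio and the lowest by count. It had 104 counts (10.05 CPM) in Pc4-OE and 52 counts (4.99 CPM) in control, a ratio of 2.01 (1.43 to 2.86). Its log2 ratio of 1.01 lies just past the 2-fold line and is 0.94 with 0.5 CPM added to each library, which does not meet the rule. The gene (chromosome 6, 122626424 to 122630271) also has an annotated pseudogene, Dppa3-ps, with no row in the table. Of the 10, those nearest the lower 2-fold line were Dppa4 at -0.81, short of it, and Dppa2 at -1.30, past it.

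Sall4 and Utf1 were both modestly lower in Pc4-OE with TMM, and not when scaled to the other pluripotency genes. Sall4 (chromosome 2, 168748332 to 168767201), a zinc finger factor that binds OCT4 and NANOG and recruits the NuRD deacetylase, had 2137 counts (206.5 CPM) in Pc4-OE and 2939 counts (282.2 CPM) in control, a ratio of 0.732 (0.692 to 0.774). Utf1, a chromatin-bound protein that limits activation of bivalent genes, had 2147 counts (207.4 CPM) in Pc4-OE and 3031 counts (291.1 CPM) in control, a ratio of 0.713 (0.674 to 0.753). Their log2 ratios of -0.45 for Sall4 and -0.49 for Utf1 turn to 0.12 for Sall4 and 0.085 for Utf1 under that scaling. Sall4 is overlapped by the long noncoding RNA gene Gm14261, which has no row in the table, and with the strand setting unknown its reads could not be told from those of Sall4. The balance of Sall4 to Utf1 was 0.995 in Pc4-OE and 0.970 in control, and its change had an interval of 0.948 to 1.11.

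Balances between pairs of the 10 genes need no scaling of the libraries. The change in a balance is the ratio of one gene divided by that of the other, so the order of the genes is the same by construction. The pairs therefore reuse the same 10 ratios and are not separate observations. The share of changed balances among pairs of other genes was not computed. Of 45 pairs, 40 had a change in balance whose counting interval excluded no change. The 5 that did not were the 3 pairs within Tfcp2l1, Tbx3 and Prdm14, the pair of Nanog with Prdm14, and the pair of Sall4 with Utf1. Dppa3 against Dppa2 changed most, with 0.291 Dppa3 counts per Dppa2 count in Pc4-OE and 0.0587 in control, a 4.95-fold shift (3.43 to 7.20). Nanog against Dppa2, both well counted, stood at 14.6 in Pc4-OE and 5.02 in control, a 2.91-fold shift (2.56 to 3.32). Per Sox2 count, Tfcp2l1, Tbx3 and Prdm14 had intervals that included no change, Nanog and Dppa3 were higher, and Zfp42, Sall4, Utf1, Dppa4 and Dppa2 were lower. Per Pou5f1 count, 8 of the 10 were higher, Dppa4 had an interval from 0.999 to 1.19, and Dppa2 was lower, at 0.777 of its control balance (0.683 to 0.883). Pou5f1 itself stood at the 5.19th percentile of all genes measured. Most genes were therefore higher per Pou5f1 count, and the 8 say nothing particular about the 10.

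The other pluripotency genes, a list of 27 without the 10, had a lower median than the 10. Of the 27, 0 were at least 2-fold higher in Pc4-OE (11.8% of all genes were) and 9 were lower (4.02% of all), with a median log2 ratio of -0.57. By counting interval, 8 of the 27 lay above 1 (31.2% of all genes) and 17 below (33.1% of all). The median, which sets the scaling to these genes, had an interval of -1.01 to 0.07, which includes no offset. Gbx2, a homeobox target of LIF and STAT3, had 9.28 CPM in Pc4-OE and 101.3 CPM in control, 10.9-fold lower (8.86 to 13.6). L1td1, which binds RNA, was 4.13-fold lower, Jarid2, a Polycomb cofactor, 2.25-fold, and Lefty1, a Nodal antagonist, 2.21-fold. None of the 10 factors was as far down as Gbx2 or L1td1. No test sets the 10 against the 27.

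Of 25 measured relatives of the 10 in their gene families, 3 met the 2-fold rule upward and 1 downward, near the shares of all genes (11.8% higher and 4.02% lower), and the median log2 ratio was 0.081. The T-box genes Tbx15 (4.83-fold, 245 counts in Pc4-OE and 51 in control) and Tbx18 (8.50-fold, 76 counts in Pc4-OE and 9 in control) were higher, as was Grhl2, a grainyhead relative of Tfcp2l1 (2.36-fold). Sall3, a relative of Sall4, was 2.59-fold lower on 28 counts in Pc4-OE and 73 in control.

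Of 20 genes of chromatin proteins that work with the 10 (NuRD, Polycomb, DNA methylation and corepressors), 15 had an interval below 1 with TMM (33.1% of all genes did) and 1 above (31.2% of all), with a median log2 ratio of -0.33 that turns to 0.24 when scaled to the other pluripotency genes. By the 2-fold rule 1 was higher (11.8% of all) and 0 were lower (4.02% of all). Tet2 and Tet1, which oxidise methylated cytosine, had ratios of 0.571 (0.538 to 0.605) for Tet2 and 0.583 (0.565 to 0.601) for Tet1, the NuRD subunit gene Mbd3 0.599 (0.548 to 0.654), and Uhrf1, a cofactor of maintenance DNA methylation, 0.614 (0.589 to 0.640), all 4 named after their values were seen. The 1 higher gene was Cbfa2t3, a corepressor relative of the PRDM14 partner Cbfa2t2, on 20 counts in Pc4-OE and 6 in control (3.35-fold, 1.30 to 10.21).

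Genes that PRDM14 is known to hold down were split. Of 8 measured, 3 were at least 2-fold higher (11.8% of all genes) and 0 lower (4.02% of all). Otx2, a homeobox factor of the formative state, had 57.4 CPM in Pc4-OE and 16.7 CPM in control (3.43-fold, 2.90 to 4.09). Fgfr2, an FGF receptor, was 2.37-fold higher (134 counts in Pc4-OE and 57 in control) and Gata4, an endoderm factor, 2.01-fold (46 counts in Pc4-OE and 23 in control). The DNA methyltransferase genes, named after their values were seen, lay the other way, at a log2 ratio of -0.61 for Dnmt3b, -0.37 for Dnmt3a and -0.78 for Dnmt3l.

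Genes of the 2-cell-like state, some of which DPPA2 and DPPA4 are known to activate through Dux, had ratios above 1 for 12 of the 14 measured, as did 7001 of all 14213 genes. Of the 14, 2 were at least 2-fold higher, near the share of all genes (11.8%), 0 were lower (4.02% of all), and the median log2 ratio was 0.63. The 2 were Usp17la (86 counts in Pc4-OE and 37 in control, 2.34-fold) and Usp17lc (32 counts in Pc4-OE and 14 in control, 2.30-fold), members of a family of near-identical copies whose counts are uncertain. Zscan4 and Tcstv genes, also families of related copies, are among the 14, so the 14 ratios are not separate observations. Dux itself had 10 counts in Pc4-OE and 3 in control, and Tdpoz4 had 0 in Pc4-OE and 11 in control, both under the count minimum.

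Genes of the next developmental state and of the germ line were also compared. Of 16 formative and primed genes, 4 were at least 2-fold higher (11.8% of all genes), 2 lower (4.02% of all), and the median log2 ratio was -0.03. Otx2, Grhl2 and Fgf15, a secreted FGF (3.31-fold), were among the 4, and Tcf15, a factor linked to priming for lineage entry, was 3.37-fold lower (15.1 CPM in Pc4-OE and 50.8 CPM in control). Of 14 germ cell genes, 3 met the rule upward and 0 downward, beside the same shares of all genes (median 0.48). Tfap2c, an AP-2 factor of germ cells and trophoblast, had 130.0 CPM in Pc4-OE and 49.8 CPM in control (2.61-fold), Rhox5 was 2.10-fold higher and Rhox9 2.77-fold on 33 counts in Pc4-OE and 12 in control.

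Markers of fibroblasts and macrophages lay higher in Pc4-OE than in control, and those of endoderm and trophoblast lay on both sides. Of 24 fibroblast markers, 19 met the 2-fold rule upward (11.8% of all genes) and 0 downward (4.02% of all), with all 24 intervals above 1 and a median log2 ratio of 1.24. Fbln2, a matrix glycoprotein, stood at 1526 CPM in Pc4-OE and 287.2 CPM in control, Lox at 873.3 CPM in Pc4-OE and 161.9 CPM in control, Mmp2 at 725.8 CPM in Pc4-OE and 174.6 CPM in control, and Acta2 at 61.9 CPM in Pc4-OE and 10.7 CPM in control. Of 16 macrophage markers, 15 were at least 2-fold higher (11.8% of all genes) and 0 lower (4.02% of all). All 16 intervals lay above 1 (31.2% of all genes), with a median log2 ratio of 2.40. Gpnmb was 8.99-fold higher, Ctss 8.62-fold, Tyrobp 10.4-fold and C1qc 12.8-fold. Of 12 endoderm markers, 6 were at least 2-fold higher (11.8% of all genes) and 1 lower (4.02% of all), with a median of 0.90. By counting interval, 9 lay above 1 (31.2% of all genes) and 2 below (33.1% of all). The 6 were led by Pdgfra (3.92-fold), Dab2 (3.84-fold), Col4a2 (2.97-fold) and Col4a1 (2.66-fold), which fibroblasts also express. The 1 at least 2-fold lower was Hnf4a, a nuclear receptor (2.11-fold, 33 counts in Pc4-OE and 70 in control), named after its values were seen. Of 10 trophoblast markers, 5 were at least 2-fold higher and 1 lower, beside the same shares of all genes (median 0.90). Krt7 was at 5.84-fold, Gata2 at 3.71-fold and Gata3 at 8.05-fold (24 counts in Pc4-OE and 3 in control, interval 2.44 to 41.8). By counting interval, 5 of the 10 lay above 1 (31.2% of all genes) and 3 below (33.1% of all), the 3 named after their values were seen. The 1 lower by the 2-fold rule was Tfap2a (2.05-fold, 16 counts in Pc4-OE and 33 in control). Eomes was 1.88-fold and Tead4 1.42-fold lower, short of that rule. Cdx2 was at 0 counts in Pc4-OE and 3 in control, and Hand1 at 7 in Pc4-OE and 1 in control, both under the count minimum. The median log2 ratios of these 4 lists, between 0.90 and 2.40, all exceed that of the 10 factors (-0.12, interval -0.81 to 0.24). The intervals of the trophoblast median (-0.91 to 2.54) and endoderm median (0.19 to 1.57) overlap that of the 10. Those of the fibroblast median (1.07 to 1.88) and macrophage median (1.89 to 3.11) do not.

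**Figure D3:**
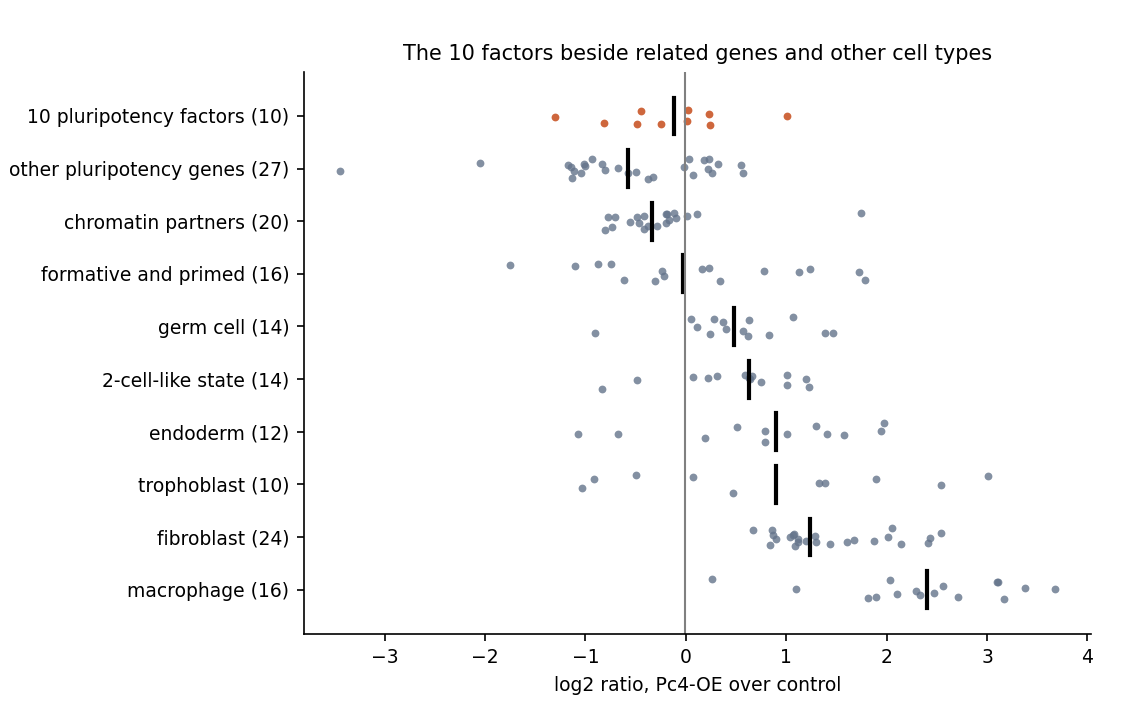
Log2 ratio of Pc4-OE over control for each measured gene (points, spread vertically for sight) of the 10 factors and of 9 lists, with the number measured in brackets; black bars are list medians and the line is the median of all genes. The 10 factors spread from -1.30 to 1.01 around a median of -0.12, to the right of the other pluripotency genes (-0.57) and to the left of the fibroblast (1.24) and macrophage (2.40) markers.

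Genes near the 10 on the chromosome were described next. Dppa4 (chromosome 16, 48283735 to 48294292) and Dppa2 (48310274 to 48319513) are neighbours 15.98 kb apart, and Morc1, a germline silencing ATPase named after its values were seen, is the next measured gene, 111.7 kb beyond Dppa2. It had 813 counts (78.6 CPM) in Pc4-OE and 1579 counts (151.6 CPM) in control, 1.93-fold lower (1.77 to 2.10), so all 3 measured genes there were lower. The median log2 ratio of the 363 other genes at 5 CPM or more on chromosome 16 was -0.03.

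The locus of Nanog and Dppa3 was mixed. Gdf3, a TGF-beta family ligand 16.3 kb from Dppa3, had 318 counts (30.7 CPM) in Pc4-OE and 692 counts (66.5 CPM) in control, 2.16-fold lower (1.89 to 2.48), between genes that were higher. C3ar1, a complement receptor of myeloid cells 132.5 kb from Nanog, was 5.58-fold higher (4.31 to 7.30), and Mfap5, a microfibril gene of fibroblasts named after its values were seen, 2.40-fold. Slc2a3, the glucose transporter GLUT3, was the closest to Nanog, 13.2 kb away, with 2286 CPM in Pc4-OE and 2028 CPM in control (log2 ratio 0.17). Near Utf1 (chromosome 7, 139943856 to 139945112), Adam8, a protease of myeloid cells 33.8 kb away, was 6.89-fold higher (5.69 to 8.41) and 6430531B16Rik 5.32-fold on 37 counts in Pc4-OE and 7 in control, while Utf1 itself had a log2 ratio of -0.49. Over all 28 measured genes within 200 kb that are not among the 10, 4 met the 2-fold rule upward and 1 downward, near the shares of all genes (11.8% higher and 4.02% lower), and the median log2 ratio was 0.061.

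**Figure D4:**
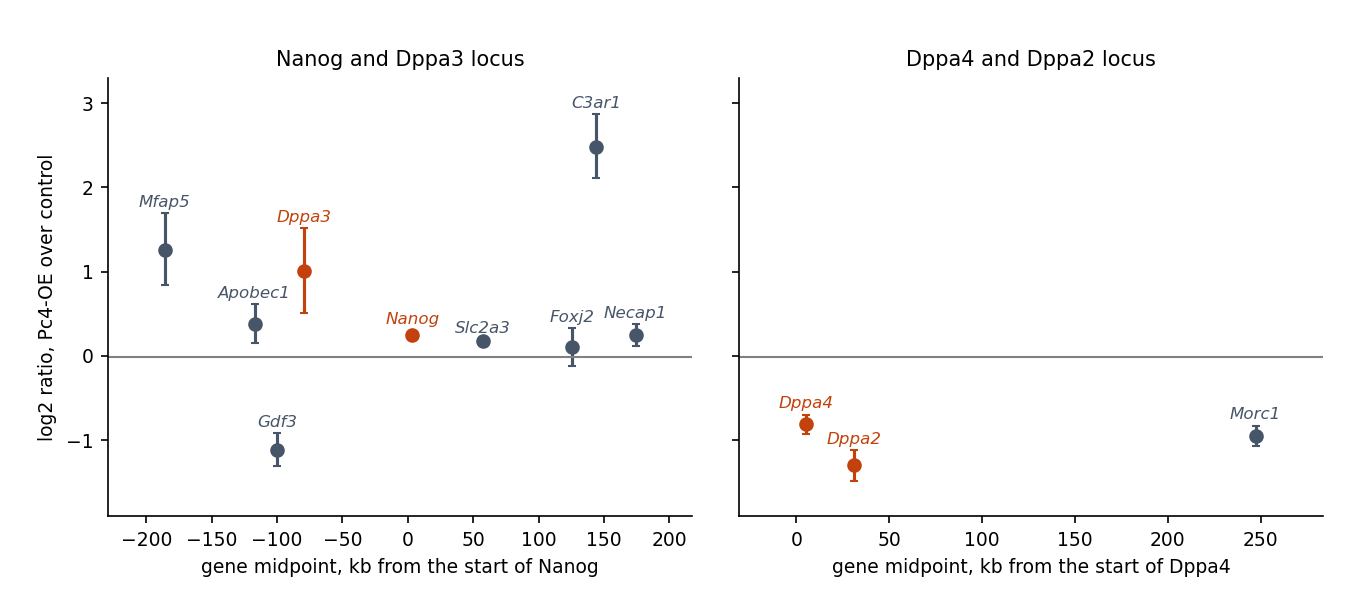
Log2 ratio of Pc4-OE over control with 95% counting intervals for the measured genes within 200 kb of Nanog (left) and of Dppa4 (right), against the distance of the gene midpoint from the start of Nanog or Dppa4 in kb; the 10 factors are in orange, and the line is the median of all genes. On the left Gdf3 (-1.11) lies below its neighbours and C3ar1 (2.48) above them; on the right Dppa4, Dppa2 and Morc1 all lie below the line.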

How the data were processed

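The authors deposited raw read counts for each gene, with 1 column for each library, named by the title of 1 sample. STAR 2.4.1c, featureCounts and the build mm10 are named, per the submitters' processing notes, and libraries were stranded poly(A), per the labels' protocols. Not given in the sources used here: the annotation, the strand setting and how multiply mapped reads were treated. Counts were scaled to CPM with TMM over all rows (edgeR 4.0.16, R 4.3.3), a choice of rows made after TMM over genes past the count minimum had also been run and its counts seen. Ratios carry exact Clopper-Pearson 95% intervals of the 2 counts, and balances between genes exact conditional intervals of the odds ratio (scipy 1.17.1). With 20 counts summed over equal libraries, equal counts give an interval of 0.374 to 2.68, and 1000 counts one of 0.882 to 1.13. PCR copies are not independent molecules, so intervals cover counting error only. Positions and promoters came from RefSeq GRCm38.p6, of which mm10 is a copy, matched by Entrez ID for 99.7% of rows. Promoter windows matched 4 of the 10 genes. The ratio, its interval and the 2-fold rule were tested on simulated Poisson counts scaled by library totals, without variation between cultures. The other steps were not tested on simulated data.

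Named genes are the 10, Sub1, Pou5f1 and Sox2. From each list up to 4 genes that meet the 2-fold rule were named, by the interval bound nearest to 1. Up to 4 neighbours were named by the same measure. Dux, Tdpoz4, Cdx2, Hand1, Slc2a3 and those marked in the text were added after their values were seen. So were the chromosome medians, the balances against Pou5f1 and Sox2, the promoter motifs and the look-up of pseudogenes and overlapping genes. The 10 genes and the 11 lists were chosen with earlier results of these data known. Lists share a few genes, such as Otx2, Grhl2 and Tfap2c. Alternatives were library totals, DESeq2 1.42.0 size factors, scaling to the other pluripotency genes, a pseudocount, other count minimums and a widened interval.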

Additional observations from a re-analysis of the deposited data

How the results depend on the processing

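With 1 library per group, no replicate could be left out, and no p-value exists to change. No paired analysis was possible because each group has 1 library. Library totals, DESeq2 size factors and TMM over genes past the count minimum (the last chosen after seeing the data, with 1711 genes 2-fold higher and 547 lower) left the direction of the 7 factors whose interval excluded 1, and 1 factor 2-fold higher and 1 lower; with library totals Prdm14 also had an interval above 1 (3 factors in all). Scaling to the other pluripotency genes moved the median log2 ratio of all genes by 0.57 and was the setting that turned directions. Under it, 0 factors were 2-fold lower, and 8 had an interval above 1 and 2 below. The share of all genes by that interval rule was not computed with this scaling. With it, 3721 genes were 2-fold higher and 135 lower, and the median of the 10 was 0.45. Log2 ratios were then 0.82 for Nanog, 0.58 for Tfcp2l1, 0.59 for Tbx3, 0.80 for Prdm14, 0.32 for Zfp42, -0.73 for Dppa2, 1.58 for Dppa3, -0.24 for Dppa4, 0.12 for Sall4 and 0.085 for Utf1, and the median of the chromatin partners was 0.24. A pseudocount of 0.5 CPM left 0 factors 2-fold higher. At least 100 counts left 1095 genes 2-fold higher and 366 lower, over fewer genes. With an assumed biological variation (coefficient 0.4) added to the interval there were 0 factors 2-fold higher, 0 lower, 0 with an interval above 1 and 0 below, and 599 genes 2-fold higher and 99 lower. Depth limits Dppa3 most, with 156 counts in all.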
